A study of Mus musculus with 60 samples.

Results

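A set of 10 structural noncoding RNA genes was followed through the whole-blood transcriptome of mice given BIO 300 with or without total-body irradiation (TBI): Rn7sk (7SK RNA), Rn7s1 and Rn7s2 (2 copies of 7SL RNA), Rny1 and Rny3 (Y RNAs), Rmrp (the RNA of RNase MRP), Rpph1 (the RNA of RNase P), Terc (telomerase RNA), and Gm26917 and Gm42418, 2 neighbouring genes on chromosome 17. They are 10 of the 49315 genes in the count tables and all 10 had counts in every mouse. The genes were chosen by RNA class and by name with earlier results of these data known, so their values are a description of these mice and no test on them is independent evidence. Gm26917 had also been selected on its low share of the counts at 100 and 200 mg/kg on Day 1. For it and for Gm42418 those comparisons are given with no p-value.

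BIO 300 is an oral powder of synthetic genistein, a soy isoflavone under study as a radiation countermeasure. Male CD2F1 mice received vehicle or BIO 300 by gavage on consecutive days, and whole blood was taken for RNA sequencing 24 h after dosing ended (Day 0) or 48 h after it (Day 1). The unirradiated groups were vehicle, 50 mg/kg, 100 mg/kg and 200 mg/kg of BIO 300 on each day, and the irradiated groups were vehicle and 200 mg/kg on Day 1 with 9.2 Gy of cobalt-60 gamma radiation on Day 0. Each of the 10 groups held 6 mice, 60 in all, each mouse giving 1 library, so p-values measure the spread between mice of a group. The labels name the doses Low, Med and High, and the amounts in mg/kg, the hours and the radiation dose come from the study's methods. The sources used here name no transgene or deletion in any group.

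These RNAs work without being translated. 7SK RNA holds the kinase P-TEFb in an inactive particle with Larp7, Mepce and a Hexim protein, and so restrains elongation by RNA polymerase II. 7SL RNA is the scaffold of the signal recognition particle, which brings ribosomes that make secreted proteins to the endoplasmic reticulum. Y RNAs bind the ring-shaped Ro60 protein (Trove2) and the La protein (Ssb). RNase P trims the 5′ ends of transfer RNAs, and the related RNase MRP cuts precursors of ribosomal RNA. Telomerase RNA carries the template for telomere repeats. RNA polymerase III makes the 7SK, 7SL, Y, RNase P and RNase MRP RNAs, while Terc is a product of RNA polymerase II. In blood, Y RNAs are known to be abundant in platelets and red cells, which have no nucleus. Gm26917 and Gm42418 are annotated as long intergenic noncoding RNAs, and RefSeq on GRCm38.p6 lists Gm42418 as another name of Rn18s-rs5, a pseudogene related to 18S ribosomal RNA.

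The sequences below are GENCODE vM21 transcripts on GRCm38, written 5′ to 3′ along the RNA. Rny1 (ENSMUSG00000065701, chr6:47788069-47788180, minus strand) and Rny3 (ENSMUSG00000064945, chr6:47781624-47781725, plus strand) lie near each other on chromosome 6 and are shown because their levels are set against each other below. Capitals mark the 6 stretches of at least 6 bases that both hold in the same order, 48 bases in all.
Rny1: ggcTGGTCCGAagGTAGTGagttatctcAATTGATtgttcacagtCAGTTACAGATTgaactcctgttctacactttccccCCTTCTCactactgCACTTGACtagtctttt
Rny3: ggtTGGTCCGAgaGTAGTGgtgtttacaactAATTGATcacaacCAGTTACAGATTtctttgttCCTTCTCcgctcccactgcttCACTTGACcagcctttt
Rn7s1 (ENSMUSG00000099021) and Rn7s2 (ENSMUSG00000099250), both on chromosome 12, differed at 0 of 300 bases. Reads inside these bases cannot be given to 1 copy, and both counts are uncertain as copy counts. They also overlap miRNA gene models of 0 and 7 counts.
Rn7sk (ENSMUSG00000065037, chr9:78175303-78175633, minus strand) is 331 bases long, and its first 300 (chr9:78175334-78175633) are shown because it fell at both higher doses on Day 1. Capitals mark its 3 GATC motifs, all within the first 67 bases. GATC reads the same on both strands, and in RNA the letters are those of the GAUC motif at which Hexim proteins are known to bind 7SK. Of 4905 GENCODE transcripts of 300 to 362 bases, 445 (9.07%) held at least as many.
Rn7sk: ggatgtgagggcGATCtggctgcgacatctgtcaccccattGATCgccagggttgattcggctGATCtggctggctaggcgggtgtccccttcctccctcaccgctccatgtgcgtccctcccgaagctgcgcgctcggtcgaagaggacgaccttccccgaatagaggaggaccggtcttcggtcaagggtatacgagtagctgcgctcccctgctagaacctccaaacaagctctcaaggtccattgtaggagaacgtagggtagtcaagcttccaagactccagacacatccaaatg
Rmrp (ENSMUSG00000088088, chr4:43492788-43493058, minus strand) is shown for its overlap with a protein-coding gene. Capitals mark bases 1 to 159, which lie opposite Ccdc107. Ccdc107 had 3961 counts over all mice against 335496 for Rmrp, and as the strand setting of the counting was not given in the sources used here, reads of the shared bases cannot be told apart by strand.
Rmrp: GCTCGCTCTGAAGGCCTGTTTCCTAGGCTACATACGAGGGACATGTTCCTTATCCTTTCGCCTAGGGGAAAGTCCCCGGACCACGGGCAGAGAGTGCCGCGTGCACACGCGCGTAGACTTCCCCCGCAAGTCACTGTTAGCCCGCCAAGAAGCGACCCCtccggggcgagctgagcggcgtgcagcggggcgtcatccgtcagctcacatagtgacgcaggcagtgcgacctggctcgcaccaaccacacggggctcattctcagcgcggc
Rpph1 (ENSMUSG00000092837, chr14:50807449-50807767, minus strand) shares 284 bases with Ccnb1ip1 on the same strand, which had 615 counts against 5599781. Terc (ENSMUSG00000064796) lies at chr3:96414437-96414859 on the minus strand. Gm26917 (ENSMUSG00000097971, chr17:39843013-39846341) and Gm42418 (ENSMUSG00000098178, chr17:39846958-39848788) lie next to each other on the plus strand, and Gm42418 shares 923 bases with AY036118 on the opposite strand, which had 0 counts.

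The libraries held 15099415 to 45589415 counts, with a median of 24877993.5. Counts per mouse ran from 7707 to 220702 for Rn7sk and from 19537 to 179280 for Rpph1, but from 25 to 782 for Rny3 and from 10 to 258 for Terc, so single values of Terc and the Y RNAs carry the most counting error. Levels are given as counts out of each 1000000 of the library (CPM of all counts), and tests used edgeR's trimmed-mean (TMM) scaling, which sets libraries by the bulk of genes. The scalings differed greatly between groups: the median TMM factor was 1.45 in vehicle mice on Day 1 and 0.557 and 0.538 at 100 and 200 mg/kg on Day 1. The median log2 fold change of all genes was -0.38 (100 mg/kg) and -0.48 (200 mg/kg) on Day 1 with TMM, and -1.76 and -1.96 with total counts, and changes are therefore also given relative to that median. Albumin (Alb), a liver transcript, exceeded 100 CPM in 10 libraries, all of odd-numbered mice. The means over marker lists, as log2(CPM + 1) on the TMM scale, also moved between groups. The 8 platelet markers lay at 7.03 to 8.09 in vehicle mice of Day 1, with 100 mg/kg at 10.12 to 11.38, with 200 mg/kg at 10.12 to 10.89 and in irradiated vehicle mice at 8.29 to 11.04. The 8 B cell markers lay at 6.90 to 7.52, 5.06 to 6.33, 4.28 to 6.04 and 2.82 to 3.97 in the same order. The 8 T cell markers lay at 5.30 to 5.64, 3.26 to 4.18, 2.71 to 4.41 and 1.96 to 3.62, and the 8 neutrophil markers at 4.58 to 5.20, 4.71 to 5.52, 4.57 to 5.57 and 5.06 to 7.50. The 4 haemoglobin genes lay at 11.23 to 11.78, 12.93 to 14.74, 12.88 to 14.63 and 9.34 to 12.71, and 4 other red cell genes found in the tables at 9.39 to 10.76, 11.07 to 11.84, 11.19 to 12.14 and 7.38 to 10.95. No marker was at 0 in every mouse of a group, blood markers were present throughout, and the part of these shifts in the results below was not tested. In whole blood, fewer cells of a type and less RNA per cell cannot be told apart.

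Per kilobase of gene, the order of levels in vehicle mice on Day 0 was Gm26917, Gm42418, Rn7sk, Rpph1, Rmrp and then the 7SL, Y and telomerase RNAs. The medians were 19949, 15600.5, 13730.4 and 12779 CPM per kb for the first 4, whose ranges overlapped. Rmrp stood apart at 1093 CPM per kb, and Rny3, Rny1, Rn7s1 and Rn7s2 lay at 61.0, 40.2, 39.3 and 37.9, with overlapping ranges. The place of the 7SL copies in this order is uncertain, as reads that fit both copies may have been left out. Terc was lowest at 14.4 CPM per kb, below every value of the Y and 7SL genes. Together the 10 genes took 6.94% to 11.6% of the counts in these mice. Without Gm26917 and Gm42418, the other 8 took 0.419% to 1.52% in vehicle mice on Day 1 (median 1.30%), on that day with 100 mg/kg 0.225% to 0.546%, and with 200 mg/kg 0.150% to 0.205%. The 200 mg/kg mice did not overlap with vehicle, while the highest of the 100 mg/kg mice passed the lowest vehicle mouse, number 30.

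**Figure D1:**
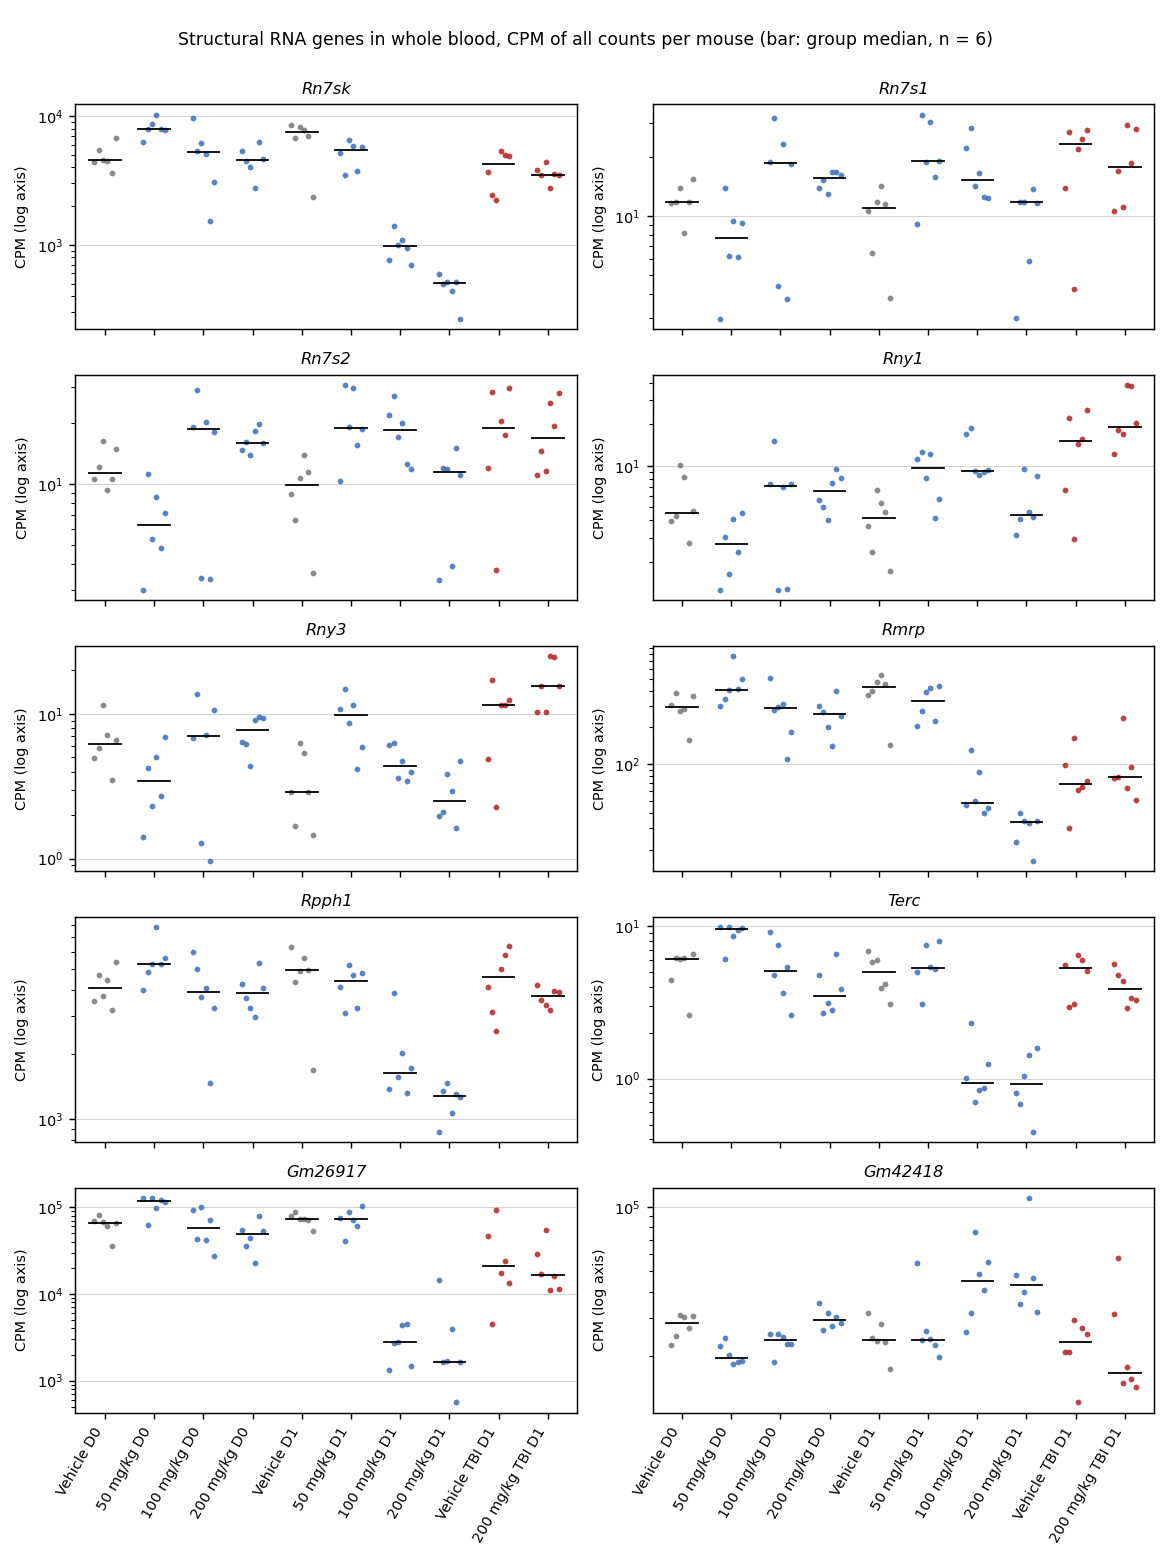
Level of each of the 10 genes in every mouse, as CPM of all counts on a log axis, with the 10 groups side by side and a bar at each group median. Rn7sk sat at 2344 to 8531 CPM in vehicle mice on Day 1 and at 264 to 589.5 CPM at 200 mg/kg, while the 7SL and Y RNAs spread widely within groups.

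The RNAs did not move as 1 class. A gene was called when its Benjamini-Hochberg adjusted p from edgeR's quasi-likelihood test was under 0.05 and its log2 fold change passed 1 in either direction. At 100 mg/kg on Day 1, 8 of the 10 genes were called against vehicle, 5 higher and 3 lower, where 48.8% of 23699 tested genes were called (18.2% higher, 30.6% lower). At 200 mg/kg on Day 1, 8 were called, 5 higher and 3 lower, where 47.8% of 23513 genes were called (17.3% higher, 30.5% lower). Nothing is read from these counts, since Gm26917 and Gm42418 are among the called genes and were chosen on these groups. On Day 0, 4 genes were called at 50 mg/kg, all lower, where 4.5% of 24485 genes were called, 4.38% being lower. After TBI, 5 genes were called against vehicle mice of Day 1, 4 higher and 1 lower, where 36% of 25146 genes were called (19.6% higher, 16.4% lower). Against vehicle mice of Day 0, 2 were called after TBI, 1 in each direction, where 26.9% of 24751 genes were called (15.1% higher, 11.8% lower). The splits turned with the scaling. With total counts 7 of the 10 genes were called at 100 mg/kg on Day 1, 2 higher and 5 lower, and over all genes the calls were 980 higher and 14732 lower. It was 6 genes at 200 mg/kg with total counts, 1 higher and 5 lower, against 712 higher and 15405 lower over all genes. For 50 mg/kg on Day 0 total counts left 1 gene of the 10, lower, while over all genes 2563 were higher and 307 lower, against 31 and 1072 with TMM. After TBI total counts gave 2 higher and 1 lower against vehicle mice of Day 1, beside 3115 higher and 5667 lower of all genes. No gene of the 10 was called at 100 mg/kg on Day 0, at 200 mg/kg on Day 0, at 50 mg/kg on Day 1, at 200 mg/kg after TBI or between vehicle mice of the 2 days, where 0% of genes were called. In those 5 comparisons 726, 2146, 4458, 688 and 3007 genes had an unadjusted p under 0.05, the 10 genes giving 0, 2, 5, 0 and 4 of them. DESeq2 called 0, 0, 4, 0 and 1 of the 10 genes there. With the 10 libraries of over 100 CPM of Alb left out, a setting chosen after seeing the data, the counts stayed at 8 for both doses on Day 1. They were 5 at 50 mg/kg on Day 0 and became 6 after TBI against each vehicle group. Shares over all genes with DESeq2 and without these libraries are not given here, so nothing is read from those counts.

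7SK RNA fell with the higher doses on Day 1. On Day 0 the lowest, median and highest Rn7sk levels were 3603, 4545 and 6747 CPM with vehicle, 6249, 7932 and 10267 CPM at 50 mg/kg, 1525, 5226 and 9601 CPM at 100 mg/kg and 2777, 4549.7 and 6331 CPM at 200 mg/kg. On Day 1 they were 2344, 7464 and 8531 CPM with vehicle, 3485, 5463 and 6513 CPM at 50 mg/kg, 694, 974 and 1407 CPM at 100 mg/kg and 264, 504 and 589.5 CPM at 200 mg/kg. In CPM of all counts both higher-dose groups of Day 1 lay below every vehicle mouse, and they did not overlap with each other. On the TMM scale the 200 mg/kg mice were below every vehicle mouse, but the 100 mg/kg mice, at 1219.5 to 2069 CPM, overlapped with vehicle at 2033 to 5687 CPM. Mouse 30 was the low vehicle mouse, the next lowest standing at 6796.5 CPM. The log2 fold change was -1.36 ± 0.27 (SE) at 100 mg/kg (edgeR adjusted p = 0.000537) and -2.27 ± 0.29 at 200 mg/kg (edgeR adjusted p = 9.17e-06). With total counts the log2 fold changes were -2.79 and -3.86. Relative to the median of all genes they were -0.98 and -1.79 with TMM and -1.03 and -1.90 with total counts. After TBI the levels were 2213, 4279 and 5362 CPM with vehicle and 2755.5, 3514 and 4364 CPM at 200 mg/kg, overlapping with vehicle mice of both days and with each other. The log2 fold change of irradiated against unirradiated vehicle mice was -0.31 ± 0.36 (edgeR adjusted p = 0.491).

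Protein genes of the 7SK particle were called in both directions. Of the 7 genes of the 7SK particle and P-TEFb, all tested, 1 rose and 0 fell at 100 mg/kg on Day 1, 1 rose and 1 fell at 200 mg/kg, and 2 rose and 1 fell after TBI. Over all genes 18.2%, 17.3% and 19.6% rose and 30.6%, 30.5% and 16.4% fell in these 3 comparisons. Hexim2, which inhibits P-TEFb when bound to 7SK, had 7.19, 8.26 and 10.7 CPM (TMM scale, lowest, median and highest) in vehicle mice on Day 1, 21.1, 32.6 and 46.7 at 100 mg/kg and 25.6, 30.4 and 41.9 at 200 mg/kg. The treated groups did not overlap with vehicle on this scale, but did in CPM of all counts, where the medians were 12.2, 18.6 and 16.2. The log2 fold changes with TMM were 2.00 ± 0.19 (edgeR adjusted p = 6.69e-07) and 1.95 ± 0.14 (edgeR adjusted p = 3.65e-08). It rose by 2.40 on the log2 scale after TBI, and its paralog Hexim1 by 1.46 (edgeR adjusted p = 0.000142 and 0.000166). Mepce, which caps the 5′ end of 7SK, fell at 200 mg/kg (log2 fold change -1.11, edgeR adjusted p = 5.56e-05), and Larp7, which binds its 3′ end, fell after TBI (-1.08, edgeR adjusted p = 0.000504). Over the 7 genes the median log2 fold change was 0.32, 0.15 and 0.10 in these comparisons, beside -0.38, -0.48 and 0.09 for all genes.

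The RNAs of RNase MRP and RNase P, which share most of their proteins, gave different calls. Rmrp had 157, 296 and 379.7 CPM (lowest, median and highest) in vehicle mice on Day 0, 301, 408 and 766 with 50 mg/kg, 109.8, 286 and 510.2 at 100 mg/kg and 142, 257 and 401 at 200 mg/kg, all 4 groups overlapping. Its Day 1 levels were 143, 425 and 533 CPM with vehicle, 205, 330.0 and 438 with 50 mg/kg, 40.1, 48.1 and 132 at 100 mg/kg and 16.2, 33.5 and 40.0 at 200 mg/kg, and 29.8, 68.6 and 163 in irradiated vehicle mice and 50.6, 77.9 and 238 in irradiated 200 mg/kg mice. In CPM of all counts every mouse at 100 and 200 mg/kg on Day 1 lay below every vehicle mouse, and the irradiated vehicle mice overlapped with vehicle only through the low vehicle mouse 30. On the TMM scale the 100 mg/kg mice, at 74.2 to 193 CPM, overlapped with vehicle at 124 to 383 CPM, while the 200 mg/kg and the irradiated vehicle mice did not. Rmrp fell at 100 mg/kg (log2 fold change -1.19 ± 0.29, edgeR adjusted p = 0.00245), at 200 mg/kg (-2.15 ± 0.27, edgeR adjusted p = 8.26e-06) and after TBI (-1.94 ± 0.29, edgeR adjusted p = 0.000169). It also fell after TBI against vehicle mice of Day 0 (-1.76 ± 0.21, edgeR adjusted p = 9.79e-05), so it was the 1 gene of the 10 called lower against both vehicle groups. With total counts its log2 fold changes were -2.57, -3.71, -2.27 and -1.85 in these 4 comparisons, all called.

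Rpph1 was not called on the TMM scale in any comparison, and its direction turned with the scaling. Its levels were 3198, 4076 and 5358 CPM with vehicle on Day 0, 3971, 5257 and 7816 with 50 mg/kg, 1464, 3885 and 5998 at 100 mg/kg and 2969, 3857 and 5287 at 200 mg/kg, which overlapped. On Day 1 they were 1689, 4924 and 6289.6 CPM with vehicle, 3107, 4391 and 5191 with 50 mg/kg, 1318, 1640.4 and 3839 at 100 mg/kg and 874, 1284 and 1463 at 200 mg/kg. In irradiated mice they were 2570.2, 4552 and 6382 CPM with vehicle and 3198, 3728 and 4183 at 200 mg/kg. At 100 mg/kg on Day 1 the log2 fold change was 0.16 ± 0.30 with TMM (edgeR adjusted p = 0.636) and -1.23 ± 0.32 with total counts (edgeR adjusted p = 0.00258), and it was 0.54 relative to the median of all genes. At 200 mg/kg it was -0.32 ± 0.28 with TMM (edgeR adjusted p = 0.323), -1.93 with total counts and 0.16 relative to the median of all genes.

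Ratios of counts within a mouse need no scaling, and they set 7SK and RNase MRP RNA against RNase P RNA directly. The Rn7sk to Rpph1 ratio (lowest, median and highest) was 1.36, 1.41 and 1.67 in vehicle mice on Day 1, 0.366, 0.547 and 0.718 at 100 mg/kg and 0.209, 0.381 and 0.675 at 200 mg/kg, with no overlap with vehicle. It was 0.766, 0.858 and 1.07 in irradiated vehicle mice, again below every unirradiated vehicle mouse of Day 1. At 50 mg/kg on Day 1 it was 1.12, 1.23 and 1.26, and in vehicle mice on Day 0 it was 1.02, 1.20 and 1.26. Both of these groups also lay below every vehicle mouse of Day 1. The irradiated vehicle mice overlapped with vehicle mice of Day 0. Mouse 30, low for both RNAs, had a ratio of 1.39. The Rmrp to Rpph1 ratio was 0.0585, 0.0915 and 0.0958 in vehicle mice on Day 1, 0.0253, 0.0329 and 0.0425 at 100 mg/kg and 0.0124, 0.0266 and 0.0310 at 200 mg/kg, so that no treated mouse reached the vehicle range. In irradiated vehicle mice it was 0.00946, 0.0118 and 0.0636 and in irradiated 200 mg/kg mice 0.0130, 0.0210 and 0.0700, where in both groups the highest mouse lay inside the vehicle range.

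**Figure D2:**
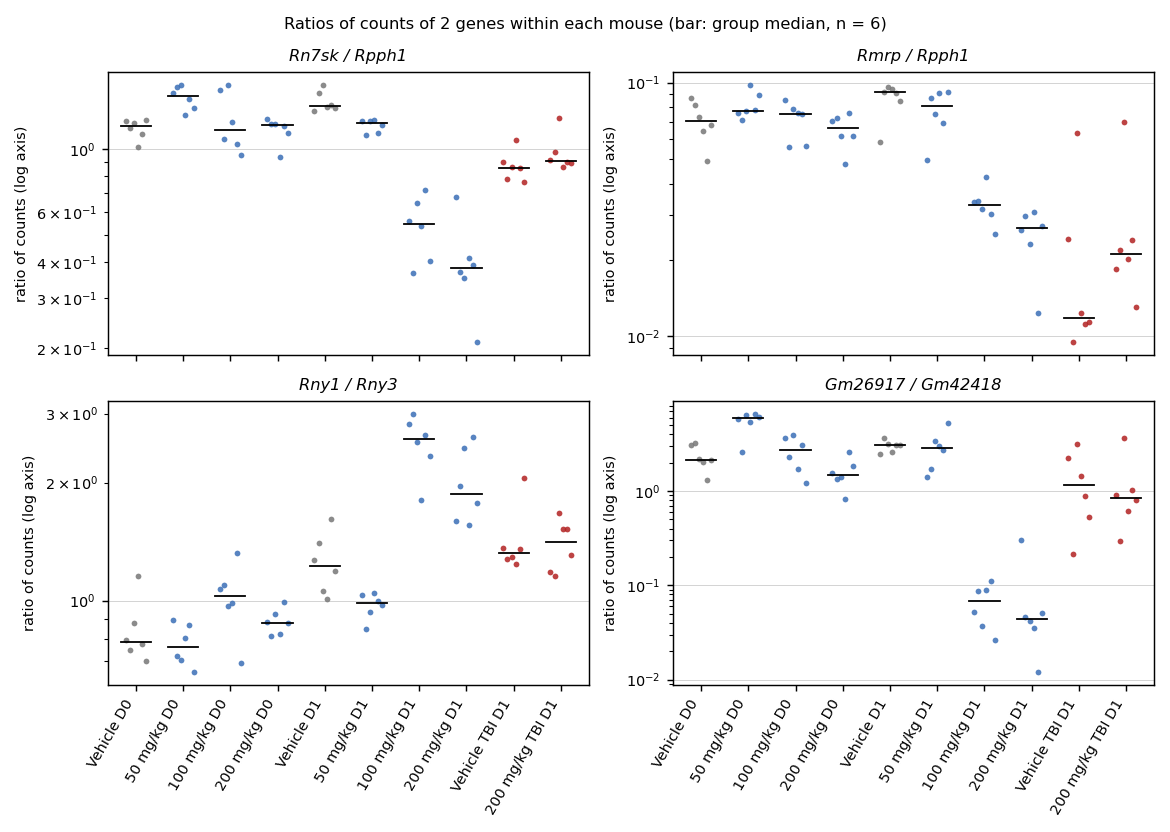
Ratios of counts within each mouse, on a log axis, for pairs of the structural RNA genes, with the 10 groups side by side and a bar at each group median. The Rn7sk to Rpph1 ratio had a median of 1.41 with vehicle on Day 1 and 0.381 at 200 mg/kg, and the Rny1 to Rny3 ratio stood at 1.23 with vehicle and 2.59 at 100 mg/kg.

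Of 11 protein genes of RNase P and MRP, 10 were tested at each of the higher doses on Day 1, where 0 rose and 3 fell, near the 30.6% and 30.5% of all genes that fell. Pop1, the largest shared subunit, fell by 1.24 on the log2 scale at 100 mg/kg and by 1.37 at 200 mg/kg (edgeR adjusted p = 0.000998 and 0.00816). Pop4 and Rpp40 fell too, with log2 fold changes of -1.19 and -1.36 at 100 mg/kg and -1.10 and -1.58 at 200 mg/kg (edgeR adjusted p = 7.06e-05, 0.00305, 0.0182 and 0.00324). All were low genes, with vehicle medians of 2.07, 3.49 and 2.00 CPM on the TMM scale. After TBI, where 16.4% of all genes fell, 1 of 11 did, Rpp38 (-1.73, edgeR adjusted p = 0.0228). The medians of the list, -0.59, -0.86 and -0.77, stood beside -0.38, -0.48 and 0.09 for all genes.

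Telomerase RNA had the fewest counts of the 10 over all mice, 6778, and was called lower with total counts alone. Terc had 2.60, 6.11 and 6.53 CPM (lowest, median and highest) in vehicle mice on Day 0, 6.06, 9.60 and 9.84 with 50 mg/kg, 2.59, 5.07 and 9.14 at 100 mg/kg and 2.68, 3.49 and 6.51 at 200 mg/kg. On Day 1 it had 3.10, 4.99 and 6.82 CPM with vehicle, 3.06, 5.29 and 8.00 with 50 mg/kg, 0.698, 0.941 and 2.30 at 100 mg/kg and 0.450, 0.921 and 1.58 at 200 mg/kg, and 2.92, 5.32 and 6.50 and 2.91, 3.85 and 5.63 in irradiated mice with vehicle and 200 mg/kg. The 100 and 200 mg/kg mice of Day 1 lay below every vehicle mouse in CPM of all counts, but overlapped with them on the TMM scale. The TMM log2 fold changes were -0.70 ± 0.25 and -0.77 ± 0.28, under the fold threshold although the edgeR adjusted p was 0.0248 and 0.0253. They were -2.10 and -2.31 with total counts, both called, and -0.32 and -0.29 relative to the median of all genes. Of 7 telomerase protein genes, 1 rose and 1 fell at 100 mg/kg, 0 rose and 2 fell at 200 mg/kg and 0 rose and 4 fell after TBI, beside 30.6%, 30.5% and 16.4% of all genes that fell. Gar1, of the particle that stabilises Terc, fell in all 3, with log2 fold changes of -1.26, -1.30 and -2.03 (edgeR adjusted p = 0.0014, 0.000254 and 0.00271). Tert, the reverse transcriptase, fell at 200 mg/kg (-2.25, edgeR adjusted p = 0.00502) from a median of only 0.535 CPM. Naf1, an assembly factor, rose at 100 mg/kg on the TMM scale (1.18, edgeR adjusted p = 4.61e-06) but not in CPM of all counts, where its median went from 6.42 to 5.33, and Dkc1 and Nop10 fell after TBI (-1.33 and -1.13, edgeR adjusted p = 9.86e-06 and 0.0138). The list's medians of -0.37, -0.67 and -1.13 stood beside -0.38, -0.48 and 0.09 for all genes.

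The counts of the 7SL copies, uncertain as levels of 7SL RNA, moved the other way on the TMM scale. Rn7s1 had 8.15, 11.8 and 15.5 CPM (lowest, median and highest) in vehicle mice on Day 0, 2.95, 7.71 and 13.9 with 50 mg/kg, 3.74, 18.8 and 31.8 at 100 mg/kg and 13.0, 15.7 and 16.8 at 200 mg/kg. Its Day 1 levels were 3.79, 11.0 and 14.2 CPM with vehicle, 9.13, 19.1 and 33.2 with 50 mg/kg, 12.4, 15.4 and 28.2 at 100 mg/kg and 3.00, 11.8 and 13.8 at 200 mg/kg, and 4.20, 23.5 and 27.8 and 10.6, 17.9 and 29.3 in irradiated mice with vehicle and 200 mg/kg. In CPM of all counts every treated group overlapped with its vehicle group. On the TMM scale Rn7s1 had 3.29, 7.49 and 10.2 CPM with vehicle on Day 1, 24.5, 28.3 and 41.5 at 100 mg/kg and 4.64, 21.9 and 33.3 at 200 mg/kg, and at 100 mg/kg there was no overlap with vehicle. The log2 fold changes were 2.24 ± 0.26 at 100 mg/kg (edgeR adjusted p = 5.07e-06) and 1.62 ± 0.40 at 200 mg/kg (edgeR adjusted p = 0.00269), and 2.38 and 1.68 for Rn7s2. With total counts they were 0.86 and -0.01 for Rn7s1 and 1.00 and 0.05 for Rn7s2, so the 200 mg/kg rise was one relative to other genes and Rn7s1 turned sign. Relative to the median of all genes Rn7s1 stood 2.62 and 2.10 higher on the log2 scale. After TBI Rn7s1 and Rn7s2 rose against vehicle mice of Day 1 by 1.62 ± 0.49 and 1.63 ± 0.52 (edgeR adjusted p = 0.0169 and 0.0221), with overlap between the groups. The Rn7s2 call ended without mouse 50, and neither gene was called with total counts (1.04 and 1.02, edgeR adjusted p = 0.0629 and 0.0777). Against vehicle mice of Day 0, neither was called after TBI with TMM. The Rn7s1 to Rn7s2 ratio had group medians from 0.935 to 1.20.

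Of 9 genes of the signal recognition particle and its receptor found in the tables, 1 rose and 1 fell at each of the higher doses on Day 1 and 0 rose and 2 fell after TBI, beside 48.8%, 47.8% and 36% of all genes called in either direction. Srp14, which with Srp9 binds the Alu end of 7SL RNA, had 37.5, 46.1 and 61.9 CPM (TMM scale) in vehicle mice on Day 1, 86.8, 119 and 172 at 100 mg/kg and 108, 127 and 186 at 200 mg/kg, without overlap, while its medians in CPM of all counts were 66.5, 68.1 and 69.6. Its log2 fold changes were 1.46 ± 0.16 and 1.62 ± 0.15 (edgeR adjusted p = 3.06e-06 and 4.48e-07), and it fell at 50 mg/kg on Day 0 (-1.08 ± 0.20, edgeR adjusted p = 0.00399). Srprb, a receptor subunit in the membrane, fell in all 3 Day 1 comparisons, with log2 fold changes of -1.27, -1.30 and -1.19 (edgeR adjusted p = 6.35e-05, 0.00111 and 0.0285), and Srp54b, a copy of the subunit that reads signal peptides, fell after TBI (-1.01, edgeR adjusted p = 0.00165). The list's medians were -0.36, -0.22 and -0.41, beside -0.38, -0.48 and 0.09 for all genes.

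The Y RNAs also rose on the TMM scale. Rny1 had 2.72, 4.50 and 10.1 CPM (lowest, median and highest) in vehicle mice on Day 0, 1.25, 2.70 and 4.55 with 50 mg/kg, 1.25, 7.18 and 15.2 at 100 mg/kg and 4.06, 6.59 and 9.42 at 200 mg/kg. On Day 1 it had 1.73, 4.14 and 6.68 CPM with vehicle, 4.17, 9.68 and 12.7 with 50 mg/kg, 8.53, 9.22 and 18.7 at 100 mg/kg and 3.16, 4.40 and 9.42 at 200 mg/kg. All mice at 100 mg/kg lay above all vehicle mice, in CPM of all counts as on the TMM scale, and those at 200 mg/kg did so on the TMM scale alone. In irradiated mice it had 2.93, 15.1 and 25.5 CPM with vehicle and 12.2, 19.2 and 38.3 at 200 mg/kg, which overlapped with each other. Rny1 rose at 100 mg/kg (log2 fold change 2.93 ± 0.30, edgeR adjusted p = 1.25e-06), at 200 mg/kg (2.06 ± 0.37, edgeR adjusted p = 0.000247) and after TBI (2.45 ± 0.57, edgeR adjusted p = 0.00394). With total counts these were 1.56 (called), 0.47 (not called) and 1.84 (called). Against vehicle mice of Day 0 it rose by 1.74 ± 0.61 after TBI (edgeR adjusted p = 0.0391), a call that ended when any 1 of 8 of the 12 mice was left out. Mouse 51 had the lowest Rny1, Rny3 and Rn7s1 of the irradiated vehicle mice and 21977 CPM of Alb.

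Rny3 had 3.51, 6.22 and 11.6 CPM in vehicle mice on Day 0, 1.40, 3.46 and 6.91 with 50 mg/kg, 0.965, 6.99 and 13.9 at 100 mg/kg and 4.39, 7.78 and 9.50 at 200 mg/kg. Its Day 1 levels were 1.46, 2.87 and 6.33 CPM with vehicle, 4.17, 9.78 and 15.0 with 50 mg/kg, 3.42, 4.35 and 6.26 at 100 mg/kg and 1.62, 2.52 and 4.76 at 200 mg/kg, all overlapping with vehicle, and 2.28, 11.6 and 17.3 and 10.2, 15.6 and 25.1 in irradiated mice with vehicle and 200 mg/kg. The irradiated 200 mg/kg mice lay above every unirradiated vehicle mouse of Day 1. Its log2 fold changes were 1.83 ± 0.32 at 100 mg/kg, 1.30 ± 0.38 at 200 mg/kg and 2.17 ± 0.58 after TBI (edgeR adjusted p = 0.000177, 0.00827 and 0.00858), all called with TMM. With total counts they were 0.45, -0.25 and 1.55, of which the last was called and the 200 mg/kg value had turned sign. Against vehicle mice of Day 0, Rny3 was not called after TBI with TMM. The within-mouse ratio of Rny1 to Rny3 was 1.01, 1.23 and 1.62 in vehicle mice on Day 1, 1.81, 2.59 and 2.99 at 100 mg/kg and 1.56, 1.87 and 2.61 at 200 mg/kg. Every mouse at 100 mg/kg had a ratio above every vehicle mouse. At 200 mg/kg mice 46 and 43, at 1.56 and 1.59, fell just inside the vehicle range. In irradiated vehicle mice it was 1.24, 1.32 and 2.05, and on Day 0 it was 0.700, 0.785 and 1.16 with vehicle, without a scale being involved.

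Of the 3 genes of the Ro and La list, 1 rose and 0 fell in each of the same comparisons, and it was Trove2, the gene of the Ro60 protein that holds Y RNAs. Trove2 had 53.9, 70.5 and 106 CPM (TMM scale) in vehicle mice on Day 1, 377, 414 and 850.3 with 100 mg/kg, 370.0, 569.9 and 629 at 200 mg/kg and 172, 478 and 956 in irradiated vehicle mice. None of these groups overlapped with vehicle, and in CPM of all counts the medians were 94.5, 261, 277 and 529, again without overlap. The log2 fold changes were 2.81 ± 0.23, 2.93 ± 0.19 and 2.78 ± 0.34 (edgeR adjusted p = 1.66e-07, 2.03e-08 and 5.05e-05). Of all genes 18.2%, 17.3% and 19.6% rose there. Ssb and Puf60 were not called, and the list's medians were -0.09, -0.13 and -0.78, beside -0.38, -0.48 and 0.09 for all genes. These rises of Y RNA, 7SL RNA and Trove2 went beside the higher platelet marker means given above, and the part of platelet RNA in them was not tested.

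**Figure D3:**
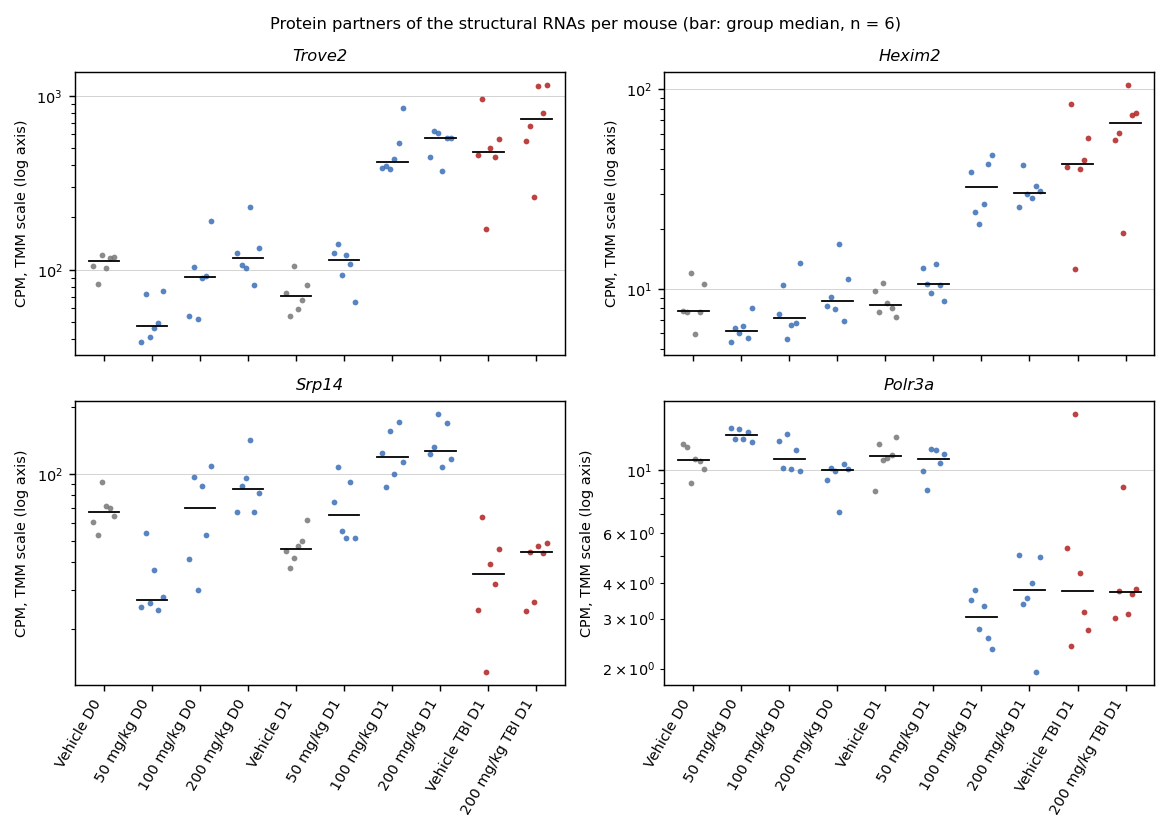
Levels of Trove2, Hexim2, Srp14 and Polr3a in every mouse, as CPM on the TMM scale on a log axis, with the 10 groups side by side and a bar at each group median. Trove2 sat at 53.9 to 106 CPM with vehicle on Day 1 and at 370.0 to 629 CPM at 200 mg/kg.

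The genes of RNA polymerase III and its factors were called in shares near those of all genes or below them. Of 28 genes, all tested, 2 rose and 8 fell at 100 mg/kg, 2 rose and 8 fell at 200 mg/kg, and 0 rose and 4 fell after TBI, where 18.2%, 17.3% and 19.6% of all genes rose and 30.6%, 30.5% and 16.4% fell. The list's medians were -0.52, -0.54 and -0.63, beside -0.38, -0.48 and 0.09. Polr3a, the largest subunit, fell at 100 mg/kg (-1.81 ± 0.16, edgeR adjusted p = 4.01e-07), from a vehicle median of 11.2 to 3.04 CPM. Polr3b, its partner in the catalytic centre, rose there on the TMM scale (1.26, edgeR adjusted p = 1.71e-07), although its median in CPM of all counts went from 40.6 to 37.2, and Polr3k, a small subunit, rose at both doses (1.49 and 1.43, edgeR adjusted p = 4.75e-07 and 5.58e-08), with medians in CPM of all counts of 20.0 with vehicle and 21.8 and 17.5 with the doses. At 200 mg/kg Snapc3, of the complex that binds the promoters of genes such as Rn7sk and Rpph1, fell (-1.86, edgeR adjusted p = 1.77e-08), as did Gtf3c1 of TFIIIC (-1.58, edgeR adjusted p = 1.6e-06). After TBI, Polr3e and Polr3d fell by 1.45 and 1.57 on the log2 scale (edgeR adjusted p = 0.00445 and 0.0054). The list of 23 spliceosomal, U3, U7 and vault RNA genes was matched by symbol, Rnu and a digit or Vaultrc5. It therefore also held Rnu73b, which is of none of these classes. Of the 23 genes, 8 had enough counts to be tested in each of the 3 comparisons. Of these, 7, 5 and 4 fell while 0 rose, where 30.6%, 30.5% and 16.4% of all genes fell. They were near the detection limit: the highest vehicle median among those with the smallest adjusted p was that of Rnu12 at 0.607 CPM. At 100 mg/kg Rnu73b had 0 CPM in every treated mouse and 0.237 to 0.514 CPM with vehicle, on the TMM scale. It thus passed the count filter through vehicle alone. Such a gene could only fall, so nothing is read from how many of this list fell. The ribosomal RNA list, searched by symbol, matched 0 genes of the tables. It named Rn18s-rs5, the RefSeq name given above for Gm42418, which was counted under the latter symbol.

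Gm26917 and Gm42418 carried most of the counts of the 10 genes and went opposite ways at the higher doses, which is a description because these genes were selected on those groups. Gm26917 had 35548, 66411 and 80233 CPM (lowest, median and highest) in vehicle mice on Day 0, 63155, 118196 and 128524 with 50 mg/kg, 27289, 56881 and 100243 at 100 mg/kg and 22839, 48491 and 79375 at 200 mg/kg. On Day 1 it had 53173.5, 73560.5 and 87695 CPM with vehicle, 40543, 73829 and 104546 with 50 mg/kg, 1337, 2777 and 4538 at 100 mg/kg and 562, 1649.9 and 14648 at 200 mg/kg, with no overlap of the last 2 groups with vehicle. Irradiated mice ranged widely, with 4453, 20706 and 92897 CPM for vehicle and 10970.0, 16523 and 54324 for 200 mg/kg. Among irradiated vehicle mice the odd-numbered animals lay at 24071 to 92897 CPM, above the even-numbered ones at 4453 to 17341 CPM. All odd-numbered mice stood above all even-numbered ones for Gm26917 in 3 of the 10 groups, and the cause was not tested. The log2 fold changes with TMM were -3.22 and -2.83 at 100 and 200 mg/kg on Day 1, and -4.67 and -4.19 with total counts. After TBI it was -0.94 ± 0.58 against vehicle mice of Day 1 (edgeR adjusted p = 0.196), which did not pass the test. It was among the 6 genes called there without the Alb-rich libraries.

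Gm42418 had 22499.8, 28565 and 30938 CPM in vehicle mice on Day 0, 18282, 19518 and 24354 with 50 mg/kg, 18785, 23611 and 25364 at 100 mg/kg and 26517, 29491 and 35369.6 at 200 mg/kg. Its Day 1 levels were 17321, 23832 and 31798 CPM with vehicle, 19757, 23735 and 54283 with 50 mg/kg, 25794, 44628 and 75848 at 100 mg/kg and 31916, 43120.2 and 110194 at 200 mg/kg, and 12094, 23101 and 29410.0 and 14262, 16627 and 57275 in irradiated mice with vehicle and 200 mg/kg. Mice at 200 mg/kg on Day 1 lay above all vehicle mice. At 100 mg/kg both the lowest odd-numbered and the lowest even-numbered mouse, at 25794 and 31712 CPM, lay inside the vehicle range. The log2 fold changes at 100 and 200 mg/kg were 2.37 and 2.61 with TMM and 0.90 and 1.07 with total counts. The within-mouse ratio of Gm26917 to Gm42418 was 2.49, 3.05 and 3.61 in vehicle mice on Day 1, 0.0264, 0.0690 and 0.111 at 100 mg/kg and 0.0122, 0.0439 and 0.305 at 200 mg/kg. It was 1.32, 2.15 and 3.24 with vehicle on Day 0 and 2.59, 5.91 and 6.55 at 50 mg/kg on Day 0, and 0.214, 1.16 and 3.16 in irradiated vehicle mice. The labels describe polyA selection and the study's methods a total-RNA kit that removes ribosomal and globin RNA, and how either step bears on these 2 genes was not tested.

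**Figure D4:**
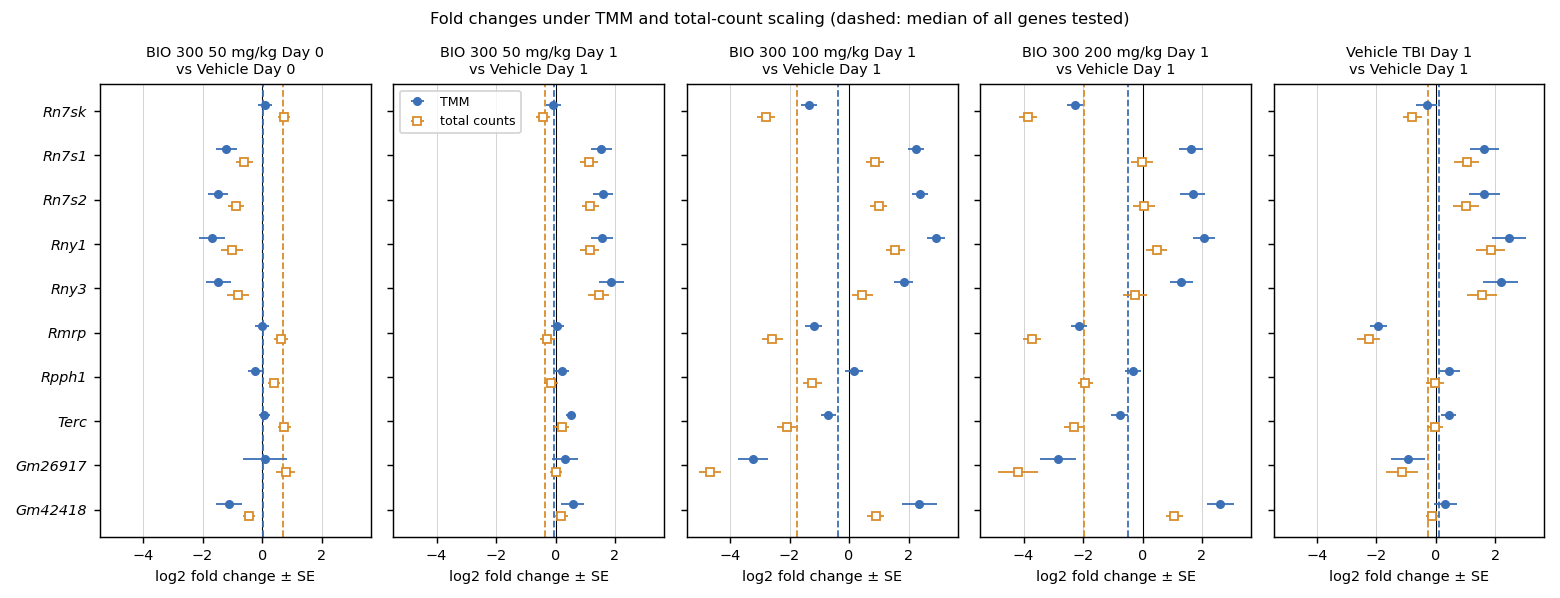
Log2 fold changes of the 10 genes with their standard errors in 5 of the comparisons, on TMM and on total-count scaling, with dashed lines at the median of all genes on each. At 200 mg/kg on Day 1 Rn7sk lay at -2.27 with TMM and -3.86 with total counts, and Rn7s1 at 1.62 and -0.01.

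At 50 mg/kg on Day 0 the 7SL and Y RNAs were the ones called on the TMM scale, though not the only ones to shift. The within-mouse Rn7sk to Rpph1 ratio was 1.31, 1.54 and 1.67 there, above every vehicle mouse of Day 0, at 1.02 to 1.26. On Day 0 Rn7s1, Rn7s2, Rny1 and Rny3 fell, with log2 fold changes of -1.21 ± 0.36, -1.49 ± 0.35, -1.69 ± 0.44 and -1.47 ± 0.43 (edgeR adjusted p = 0.0408, 0.0133, 0.0225 and 0.0364), while the other 6 lay between -1.11 (Gm42418) and 0.10 (Gm26917) and were not called. On the TMM scale Rny1 had 2.78, 3.55 and 10.3 CPM with vehicle and 0.626, 1.68 and 2.53 at 50 mg/kg, without overlap. With total counts 1 of the 4, Rny1 (-1.01), stayed called, and a fit of all 60 mice called 0. Leaving out single mice gave 1 call without mouse 3, 5 or 15, 2 without mouse 4 or 18 and 5 without mouse 2 or 17. The shares of all genes called in these fits are not given here, so nothing is read from these counts. On Day 1 the same 4 had log2 fold changes of 1.54, 1.58, 1.56 and 1.88, which did not pass with edgeR (adjusted p = 0.0886, 0.0837, 0.0886 and 0.0886). The difference between the days was itself tested: of the 10 genes these 4 passed, where 7.69% of 26323 genes did, with interaction log2 values of 2.77 ± 0.55, 3.08 ± 0.52, 3.27 ± 0.61 and 3.37 ± 0.64 (edgeR adjusted p = 0.000913, 0.000329, 0.000585 and 0.000675). This difference also holds the change of vehicle mice from Day 0 to Day 1. In that comparison 0 of the 10 genes were called, but their log2 fold changes had a median of -0.50 and a lowest value of -1.33. The median of all genes there was -0.01, so the interaction values are not changes of the treated mice alone. In the 50 mg/kg mice of Day 0 the 3 even-numbered animals lay above the 3 odd-numbered ones for each of the 4 genes. With total counts 5 of the 10 passed for the difference between the days, these 4 (1.73, 2.04, 2.16 and 2.26) and Rn7sk (-1.16, edgeR adjusted p = 0.00521), where 10577 of all genes passed, 10182 of them lower. Platelet markers stood at 7.56 to 8.54 with vehicle and 6.46 to 7.64 at 50 mg/kg on Day 0, and haemoglobin genes at 11.14 to 12.21 and 9.33 to 11.92, and their part was not tested.

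The effects of the higher doses also differed between the days. For the 100 mg/kg effect, Day 1 minus Day 0, 7 of the 10 genes passed, where 42% of 25908 genes did. Among them Rn7sk stood at -1.36 ± 0.46, Rmrp at -1.09 ± 0.42 and Rny1 at 2.60 ± 0.75 (edgeR adjusted p = 0.0152, 0.0306 and 0.00546). The Rmrp call ended without the Alb-rich libraries (-0.92, edgeR adjusted p = 0.0704) and with edgeR's own expression filter (-0.93, under the fold threshold). With total counts Rn7sk and Rmrp stayed called (-2.86 and -2.51), and Rny1 did not (1.35, edgeR adjusted p = 0.0782). For the 200 mg/kg effect 5 passed, where 36.7% of 25702 genes did, with Rn7sk at -2.38 ± 0.35, Rmrp at -2.16 ± 0.32 and Rny1 at 1.64 ± 0.55 (edgeR adjusted p = 7.27e-06, 9.72e-06 and 0.0163). With total counts Rn7sk and Rmrp stood at -3.77 and -3.53, still called, while Rny1 was at 0.25 (edgeR adjusted p = 0.688), and in a fit of all 60 mice Rny1 was at 1.56 and no longer called (edgeR adjusted p = 0.0878). Total counts gave 6 of the 10 genes at 100 mg/kg and 5 at 200 mg/kg, where 15517 and 14107 of all genes passed. In irradiated mice no gene of the 10 was called at 200 mg/kg, the log2 fold changes lying between -0.32 and 0.82. The difference of the 200 mg/kg effect between irradiated and unirradiated mice of Day 1 was tested as well, and 4 of the 10 genes passed, where 29.6% of 26875 genes did. Rn7sk differed by 2.47 ± 0.40 and Rmrp by 2.81 ± 0.42 on the log2 scale (edgeR adjusted p = 0.000153 and 8.54e-05), beside a median of 0.60 for all genes, while Rny1 and Rny3 did not pass with TMM (-1.04 ± 0.72 and -0.25 ± 0.70). With total counts 5 of the 10 passed, all higher, and of all genes 11725 were higher and 483 lower. The counts for both doses and for irradiation include Gm26917 and Gm42418, which were selected on the higher-dose groups of Day 1. Nothing is read from those counts, and the values of these 2 genes there are descriptions only. Comparisons of 1 day share their vehicle mice, so their values are set side by side only. Each difference between the days also holds the change of vehicle mice between them.

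The genes most like each RNA across the 60 mice included other small RNAs for most of them. Likeness was Pearson's r of log2(CPM + 1) on the TMM scale among 16579 genes, a description over mice that share groups and scaling. For Rn7sk the 3 highest were Scarna10 (0.876), a guide RNA of Cajal bodies, E030022I16Rik (0.859) and B130006D01Rik (0.858). Rn7s1 was most like Gm24514 (0.979), Gm26461 (0.965) and Rn7s6 (0.943), and Rn7s2 was most like the same genes (0.974, 0.959 and 0.952), which hold runs of 64, 104 and 173 bases identical to 7SL, so reads can be shared among them. Rpph1 was most like Rprl3 (0.960) and Rprl2 (0.888), with identical runs of 37 and 32 bases, and Gm24727 (0.701). Rmrp was most like 3 genes annotated as scaRNA or snoRNA, Gm22442 (0.924), Gm25395 (0.902) and Gm26448 (0.897), and Terc like Scarna2 (0.850), Phf1 (0.849) and Rcsd1 (0.837). Rny1 was most like the protein-coding genes Mboat2 (0.931), Zwilch (0.912) and Med13l (0.900), and Rny3 like Med13l (0.832), Gm24514 (0.825) and Mboat2 (0.822). Gm26917 was most like AC149090.1 (0.962), 6720427I07Rik (0.959) and Mamdc4 (0.954), and Gm42418 like the miRNA gene models Gm25911 (0.974), Gm24187 (0.973) and Gm23935 (0.969).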

How the data were processed

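Whole-blood libraries of 60 mice, 6 in each of 10 groups, were analysed from 10 count tables of 49315 genes each. Per the labels and the study's methods, the authors used Trimmomatic 0.36 for trimming, STAR 2.5.2b for alignment to GRCm38 and Subread 1.5.2 for the deposited raw counts of unique gene hits. The annotation release and strand setting were not given in the sources used here. The labels name polyA selection, while the methods name a stranded total-RNA kit that removes ribosomal and globin RNA. Gene symbols, the other deposited column used, came from the authors' result tables for 18516 genes and then from a reference gene-name table, 48996 genes being named in all. Positions, lengths and sequences came from GENCODE vM21 (GRCm38). The authors' fold changes, p-values and normalized values in those tables were not used.

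Genes with at least 10 counts summed over the mice fitted were tested with edgeR 4.0.16 (glmQLFit, glmQLFTest, TMM) (R 4.3.3; limma 3.58.1; the data.table package, 1.17.8), each comparison on its own 12 mice and each interaction on 24. Benjamini-Hochberg adjustment covered every gene of a fit, and calls needed a log2 fold change past 1 in either direction with an adjusted p below 0.05. The standard errors (±) of edgeR fold changes were derived from the test, as the absolute log2 fold change over the square root of its F statistic. DESeq2 1.42.0, total-count scaling, size factors, other filters, a covariate for odd or even animal number, 1 fit of all mice and leaving out mice were alternatives. The tests were tried on simulated data. The 10 genes and all lists were chosen with earlier results of these data known. Named genes were the 10 genes, up to 3 called genes of each list with the smallest adjusted p in a comparison, and the 3 genes most like each of the 10. Ratios used raw counts of 1 mouse. The smallest chi-square per gene between mice of a group was 10.8, so none were counted as copies. A gene that the rule named and a sequence are not reported here.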

Additional observations from a re-analysis of the deposited data

Results flagged for a closer look

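Of 100 sets of 6 mice, 1 for each gene and group, 11 held a mouse whose gap to its nearest neighbour exceeded Dixon's 95% critical share of the range, where chance gives about 1 in 20. In vehicle mice on Day 1, mouse 30 was low for Rn7sk (2344 CPM, the others from 6796.5 to 8531), Rmrp (143 CPM) and Rpph1 (1689 CPM). In vehicle mice on Day 0, mouse 17 was low for Rmrp (157 CPM) and Gm26917 (35548 CPM). Mouse 48 was low for Rn7sk at 200 mg/kg on Day 1 (264 CPM), mouse 51 for Rn7s1 among irradiated vehicle mice (4.20 CPM) and mouse 2 for Terc at 50 mg/kg on Day 0 (6.06 CPM). For Gm42418, mouse 8 was low at 100 mg/kg on Day 0 (18785 CPM), and mouse 31 at 50 mg/kg (54283 CPM) and mouse 46 at 200 mg/kg (110194 CPM) were high on Day 1. Mice 17 and 51 were among the libraries with over 100 CPM of Alb, and the part of that in their values was not tested.

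In 20 cases the effect of a treatment differed between days or with irradiation by edgeR's interaction test, given as the difference of log2 fold changes. For 50 mg/kg, Day 1 minus Day 0, these were 2.77 for Rn7s1, 3.08 for Rn7s2, 3.27 for Rny1 and 3.37 for Rny3. For 100 mg/kg they were -1.36 for Rn7sk, 1.63 for Rn7s1, 1.90 for Rn7s2, 2.60 for Rny1, -1.09 for Rmrp, -3.05 for Gm26917 and 2.66 for Gm42418. With total counts those of Rn7s1, Rn7s2 and Rny1 were 0.40, 0.66 and 1.35 and no longer called. For 200 mg/kg they were -2.38 for Rn7sk, 1.64 for Rny1, -2.16 for Rmrp, -2.64 for Gm26917 and 2.26 for Gm42418, and that of Rny1 was 0.25 with total counts, not called. For 200 mg/kg on Day 1, irradiated minus unirradiated, they were 2.47 for Rn7sk, 2.81 for Rmrp, 2.71 for Gm26917 and -2.12 for Gm42418. The values of Gm26917 and Gm42418 at 100 and 200 mg/kg and for irradiation are descriptions, since these genes were selected on those groups. They are not test results, although the 20 cases include them.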

How the results depend on the processing

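No paired analysis was possible because each animal number occurs once and no groups share a number. Total-count scaling changed most. With it, 1 gene was called at 50 mg/kg on Day 0 in place of 4, 3 after TBI against vehicle mice of Day 1 in place of 5, and 1 against those of Day 0 in place of 2. Leaving the 10 genes out of the totals gave 0, 3 and 1. At 100 mg/kg on Day 1 Rpph1 turned from 0.16 to -1.23 with total counts and -1.33 without the 10 genes. At 200 mg/kg Rn7s1 turned to -0.0074 and -0.10, Rny3 to -0.25 and -0.34, and Rn7s2 to -0.052 without the 10 genes. By construction these scalings move all genes together. The log2 ratio of the highest to the lowest group median went, with total counts, from 2.5 to 3.98 for Rn7sk, 2.79 to 1.61 for Rn7s1, 3.36 to 1.60 for Rn7s2, 3.88 to 2.84 for Rny1, 2.34 to 3.66 for Rmrp, 0.99 to 2.03 for Rpph1, 1.55 to 3.38 for Terc, 4.17 to 6.16 for Gm26917 and 2.99 to 1.42 for Gm42418.

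A fit of all 60 mice called 0 genes at 50 mg/kg on Day 0, and DESeq2 called 4 at 50 mg/kg on Day 1 and 1 between vehicle mice of the 2 days. After TBI against vehicle mice of Day 0, 1 gene was called with the filter at 1 count and 1 with animal-number parity as a covariate, but 6 without the libraries of over 100 CPM of Alb, which also gave 7 in place of 4 for the interaction with irradiation. The cause was not tested, and shares over all genes in these settings are not given here. With size factors 55 of 55 named fold changes were rated unchanged, and with either other filter 54. Unchanged meant the same direction and call. For Gm26917 and Gm42418 at the higher doses, where no call is given, it meant the same direction and a move of less than 1 SD between mice of a group. Centring values on group means kept 14 of the 30 most-like genes.

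With each mouse left out, the number called ranged from 1 to 5 at 50 mg/kg on Day 0 (1 or 2 without mouse 3, 4, 5, 15 or 18), 0 to 4 at 50 mg/kg on Day 1 (4 without mouse 36, 1 without mouse 27), 4 to 5 after TBI against vehicle mice of Day 1 and 1 to 5 against those of Day 0 (5 without mouse 51, 1 without mouse 13, 14, 17, 18, 50, 52, 53 or 54). It was 8 at 100 and 200 mg/kg on Day 1 and 0 at 200 mg/kg after TBI throughout. Those 8 include Gm26917 and Gm42418, which were selected on those groups. Shares over all genes with a mouse left out are not given here, so nothing is read from these counts. Rpph1 at 100 mg/kg ranged from -0.058 to 0.27, turning sign to -0.02 without mouse 30 and to -0.058 without mouse 38. The low counts of Terc and Rny3, from 10 and 25 in a mouse, limit what could be detected for them.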
